A study of Homo sapiens with 12 samples.

Results

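Gene expression in hHSS1 clone 7 was set against that in mock cells, with 3 arrays of clone 7 and 3 of mock among the 12 arrays of the series. The array titles chose the members, and all 18417 genes with a single symbol on the platform were compared. A172, an adherent cell line derived from a human glioblastoma, was the parent of every culture. Clone 7 was A172 stably transfected with pcDNA3.1 carrying hHSS1 fused to a 6-His tag, and is 1 clone. Clone 8 was a second clone made with the same construct. Mock cells were A172 stably transfected with empty pcDNA3.1, and are 1 line. Wild-type cells were A172 without transfection. Stable clones were kept in G-418, and all cultures were harvested at day 4 of growth. The titles name biological replicates. The p-values rest on the spread between arrays of the same label, pooled over all 4 groups of the series. They do not measure the spread between independently made lines. A difference between clone 7 and mock that comes with hHSS1 and one that comes with the isolation of a clone cannot be told apart in this comparison.

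hHSS1, now named EMC10 and formerly C19orf63, codes for a protein of the EMC, an insertase in the membrane of the endoplasmic reticulum, and has a secreted form as well. The EMC places transmembrane segments of newly made receptors, channels and enzymes into the membrane. Glioblastoma is a fast-growing and invasive brain tumour, and the questions the study put to these cells concerned proliferation, adhesion, migration and the support of blood vessels.

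The array labelled clone 7 replicate 3 stood apart from the other clone 7 arrays. It differed at least 2-fold from clone 7 replicates 1 and 2 at 142 and 146 genes, and from clone 8 replicates 1 and 2 at 5 and 0 genes. Conversely, the array labelled clone 8 replicate 3 differed at least 2-fold from clone 7 replicates 1 and 2 at 0 and 3 genes, and from clone 8 replicate 2 at 165 genes. At 95 genes the replicates 1 and 2 of the clones were at least 2-fold apart. The array labelled clone 7 replicate 3 lay nearer to clone 8 replicates 1 and 2 at 94 of these, and the array labelled clone 8 replicate 3 lay nearer to clone 7 replicates 1 and 2 at all 95. These arrays therefore go against their labels, and which label is right was not tested. No array was moved to another group. Results below use the labels as given. Most are also stated without the array labelled clone 7 replicate 3, and some without both replicate 3 arrays. The array medians lay between 8.6 and 8.67 on the log2 scale. The median gene had an SD of 0.0824 in clone 7 and 0.0549 in mock (log2, n = 3 each). It was 0.1439 in clone 8 and 0.0712 in wild-type cells (log2, n = 3 each). All 4 groups set the spread behind each SE and p, so both replicate 3 arrays that go against their labels enter it.

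hHSS1 itself checked the construct. EMC10 (probe set 8030706, chromosome 19) read 11.57, 11.72 and 12.30 on the clone 7 arrays, against 9.20, 9.33 and 9.51 on the mock arrays (log2 level). Every clone 7 array was above every mock array, and the array labelled clone 7 replicate 3 was the highest. The rise was 5.73-fold (log2 difference 2.52 ± 0.20 SE, n = 3 each, limma adjusted p = 5.72e-05), and 2.30 ± 0.18 on the log2 scale without that array (adjusted p = 9.44e-05). Wild-type cells read 11.13, 10.43 and 10.69, so that clone 7 lay 1.12 ± 0.20 above wild-type (log2, adjusted p = 0.00813) and mock lay below it (log2 difference -1.40 ± 0.20, adjusted p = 0.00285). The probe set reads the transcript of the vector and that of the cell's own gene together.

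A gene was called up-regulated or down-regulated where limma gave an adjusted p under 0.05 and the groups were 1.5-fold or more apart. By these limits 129 of 18417 genes (0.7%) changed in clone 7 against mock, of which 86 (0.467%) rose and 43 (0.233%) fell, and 29 of them changed at least 2-fold. At the adjusted p alone 336 genes (1.82%) were higher and 243 (1.32%) lower. Without the array labelled clone 7 replicate 3 the count was 277 (1.5%), with 176 up-regulated (0.956%) and 101 down-regulated (0.548%), and at the adjusted p alone 535 genes (2.9%) were higher and 442 (2.4%) lower. Of the 129 genes, 116 were also called without it, namely 78 that rose and 38 that fell. Without both replicate 3 arrays 399 genes (2.17%) changed, 263 up (1.43%) and 136 down (0.738%), and 1382 (7.5%) and 1253 (6.8%) were higher and lower at the adjusted p alone. Without mock replicate 1 the genes that fell numbered 24. The clone 7 and mock arrays did not overlap at any of the 86 genes that rose or the 43 that fell. The same was true of 4704 of all 18417 genes (25.5%). The median difference over all genes was close to 0, at -0.01 on the log2 scale. Mock against wild-type cells gave 124 calls (0.673%) by the same limits. Against wild-type, 35 of the 86 rises were also called up in clone 7, 1 was called down and 50 were not called. Of the 43 falls, 18 were also called down, 1 was called up and 24 were not called. Mock was called below wild-type at 23 of the rises and above it at 9 of the falls, beside 0.375% and 0.299% of all genes. The same mock arrays enter both contrasts, so that the choice of genes by itself can raise these counts. Over all genes 0.907% were called up and 0.434% down in clone 7 against wild-type.

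**Figure D1:**
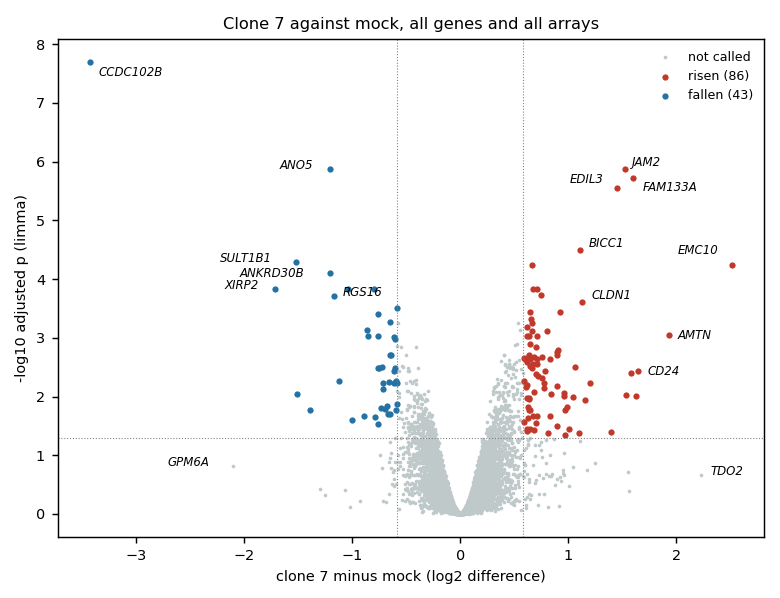
Log2 difference between clone 7 and mock (horizontal axis) against the -log10 of the limma adjusted p (vertical axis) for 18417 genes, fitted on all arrays. The 86 genes that rose (red) and the 43 that fell (blue) lie beyond the dotted lines of 1.5-fold and adjusted p 0.05; TDO2 and GPM6A, with large differences, lie below the line of the p.

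JAM2, EDIL3 and CLDN1 were among the 15 called genes with the largest rises. JAM2, a junctional adhesion molecule of endothelial and other cells, read 10.88, 10.92 and 10.75 in clone 7, against 9.36, 9.35 and 9.26 in mock. Both sets of arrays were tight and did not overlap, and JAM2 rose 2.88-fold (log2 1.53 ± 0.08 SE, adjusted p = 1.34e-06). EDIL3, a secreted ligand of integrins that is known to act on endothelial cells, read 12.54, 12.51 and 12.28 in clone 7, against 10.96, 11.03 and 10.98 in mock. It rose 2.73-fold (log2 1.45 ± 0.09, adjusted p = 2.8e-06) with no overlap of arrays, and clone 7 was also above wild-type (log2 1.25 ± 0.09, adjusted p = 7.97e-06). CLDN1, a claudin of tight junctions, read 11.41, 11.32 and 11.61 in clone 7, against 10.31, 10.37 and 10.28 in mock, a rise of 2.19-fold (log2 1.13 ± 0.11, adjusted p = 0.000249). The rise of CLDN1 against wild-type was of similar size (log2 1.18 ± 0.11, adjusted p = 8.37e-05). JAM2 stood otherwise, since its wild-type level (10.24, 10.23 and 10.36) lay between clone 7 and mock. Its difference from wild-type was 0.57 ± 0.08 on the log2 scale, below the 1.5-fold limit (adjusted p = 0.0014), and mock was below wild-type (log2 difference -0.96 ± 0.08, adjusted p = 5.08e-05). Without the array labelled clone 7 replicate 3 all 3 were called, with log2 differences from mock of 1.58 at JAM2, 1.53 at EDIL3 and 1.05 at CLDN1.

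AMTN, which encodes the enamel protein amelotin, had the largest rise after EMC10 among the genes called with all arrays. It read 10.59, 10.77 and 10.03 in clone 7, against 8.57, 8.62 and 8.41 in mock (3.81-fold, log2 1.93 ± 0.23 SE, adjusted p = 0.000903). The array labelled clone 7 replicate 3 was the lowest of the clone 7 arrays and still above every mock array. CD24, a mucin-like surface glycoprotein, rose 3.14-fold, with levels of 9.56, 9.75 and 9.05 in clone 7 against 7.76, 7.82 and 7.84 in mock (adjusted p = 0.00367). Near-identical copies of CD24 share its probes, and its value is uncertain for that reason. TSPAN8, a tetraspanin linked to cell motility, read 9.77, 9.40 and 8.6 in clone 7, against 7.80, 7.65 and 7.72 in mock (2.90-fold, adjusted p = 0.00927). Leaving out mock replicate 2 ended its call (adjusted p = 0.0522), and the array labelled clone 7 replicate 3 was again the lowest of its group. Without that array the log2 differences were 2.15 at AMTN, 1.85 at CD24 and 1.86 at TSPAN8, all called, and TDO2, SULF1 and ZNF100, not called with all arrays, then rose by more than AMTN (log2 3.28, 2.54 and 2.28). FRAS1, an extracellular matrix protein of basement membranes, read 9.74, 9.81 and 9.15 in clone 7, against 8.49, 8.31 and 8.43 in mock (2.23-fold, adjusted p = 0.0117). It passed without the array labelled clone 7 replicate 3 (adjusted p = 0.00405), and failed in 4 of the 6 fits that left out 1 clone 7 or mock array, at adjusted p values between 0.0532 and 0.0663.

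Among the other large rises were an enzyme, zinc finger genes and genes of RNA and chromatin. AADAC, an esterase of the endoplasmic reticulum that hydrolyses lipids and drugs, read 9.06, 9.22 and 9.89 in clone 7, against 7.70, 7.82 and 7.78 in mock (3.08-fold, adjusted p = 0.00983). The arrays did not overlap, but the call was lost without mock replicate 1 (adjusted p = 0.0519). ZNF22 rose 2.99-fold, with levels of 7.80, 7.71 and 8.49 in clone 7 against 6.76, 6.47 and 6.05 in mock (adjusted p = 0.00404), and was not called between clone 7 and wild-type (log2 0.18 ± 0.24, adjusted p = 0.788). FAM133A read 8.89, 8.86 and 8.71 in clone 7, against 7.22, 7.28 and 7.15 in mock (3.04-fold, adjusted p = 1.9e-06), with tight arrays in both. Its wild-type arrays read 8.32, 8.34 and 8.51. Clone 7 was not called against wild-type there (log2 0.43, below the 1.5-fold limit), and mock was called below wild-type (log2 difference -1.17). BICC1, an RNA-binding protein, rose 2.15-fold (log2 1.11 ± 0.08, adjusted p = 3.22e-05), and NAP1L3, of the nucleosome assembly family, 2.29-fold (log2 1.20 ± 0.19, adjusted p = 0.00595). Without the array labelled clone 7 replicate 3 the log2 differences of these genes were 1.38 at AADAC, 1.34 at ZNF22, 1.66 at FAM133A, 1.13 at BICC1 and 1.47 at NAP1L3, all called. ZNF518B rose 2.14-fold with all arrays (adjusted p = 0.0422), but not without the array labelled clone 7 replicate 3 (log2 0.80, adjusted p = 0.0643), which read 8.97 beside 8.17 and 8.01 on the other clone 7 arrays and 7.32, 7.06 and 7.48 in mock. Its call was also lost without any other single clone 7 or mock array and without clone 8 replicate 1 (adjusted p between 0.0504 and 0.184). Clone 7 was not called against wild-type at ZNF518B (log2 difference -0.80, adjusted p = 0.114), and mock was called below wild-type (log2 difference -1.90). SNORD116-21, a small nucleolar RNA of the Prader-Willi region of chromosome 15, rose 2.64-fold (adjusted p = 0.0402). It passed without the array labelled clone 7 replicate 3 (log2 1.80, adjusted p = 0.0043) and failed in the 5 other fits that left out 1 clone 7 or mock array (adjusted p between 0.0965 and 0.175). Of the 20 SNORD116 copies measured, whose near-identical sequences make each value uncertain, 1 rose with all arrays, 4 rose without the array labelled clone 7 replicate 3 and 14 rose without both replicate 3 arrays, with a median log2 difference of 0.64 over all arrays.

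CCDC102B, which encodes a centrosome linker protein, fell most. It read 6.55, 6.58 and 6.24 in clone 7, against 9.64, 9.92 and 10.08 in mock, a fall of 10.8-fold (log2 difference -3.43 ± 0.12 SE, adjusted p = 2.01e-08). The wild-type arrays read 6.23, 5.96 and 6.15, which is the level of clone 7 and below the lower quartile of all probe sets (7.05). It was not called between clone 7 and wild-type (log2 0.34 ± 0.12, adjusted p = 0.133), whereas mock was 3.77 ± 0.12 above wild-type on the log2 scale (adjusted p = 6.47e-09). The same arrangement, with mock alone high, held for further genes. SULT1B1, a cytosolic sulfotransferase, read 6.21, 6.22 and 6.35 in clone 7, against 7.62, 7.90 and 7.83 in mock and 5.93, 6.30 and 6.18 in wild-type cells (log2 difference from mock -1.52 ± 0.12, adjusted p = 5.06e-05). ANKRD30B read 10.81, 10.81 and 10.93 in clone 7, against 11.88, 12.08 and 12.21 in mock and 11.07, 11.04 and 10.98 in wild-type cells (log2 difference from mock -1.21 ± 0.10, adjusted p = 8.02e-05). Closely related copies of ANKRD30B make its value uncertain. ANO5, of the anoctamin family, fell 2.30-fold at levels below the lower quartile in clone 7, mock and wild-type cells (adjusted p = 1.34e-06). CD180, a relative of the toll-like receptors, fell 2.06-fold (log2 difference -1.04 ± 0.10, adjusted p = 0.000146), and BDKRB1, the bradykinin B1 receptor, 1.81-fold (log2 difference -0.86 ± 0.10, adjusted p = 0.00095). Against wild-type, clone 7 differed by -0.04 and 0.08 on the log2 scale at CD180 and BDKRB1, neither of them called. The falls against mock were called without the array labelled clone 7 replicate 3, with log2 differences of -3.32 at CCDC102B, -1.57 at SULT1B1, -1.25 at ANKRD30B, -1.24 at ANO5, -1.06 at CD180 and -0.92 at BDKRB1.

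KCNAB2, a potassium channel subunit, fell 2.00-fold (adjusted p = 0.0249), with 9.45, 9.43 and 10.24 in clone 7 against 10.81, 10.71 and 10.60 in mock and 9.24, 9.42 and 9.33 in wild-type cells. It was called without the array labelled clone 7 replicate 3 (log2 difference -1.27, adjusted p = 0.00212) and lost its call in the 5 other fits that left out 1 clone 7 or mock array (adjusted p between 0.072 and 0.119).

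Other genes were below both mock and wild-type cells. XIRP2, an actin-binding protein of muscle cells, read 7.05, 6.5 and 6.22 in clone 7, against 8.30, 8.34 and 8.28 in mock. All clone 7 arrays lay below all mock arrays, and XIRP2 fell 3.29-fold (log2 difference -1.72 ± 0.16 SE, adjusted p = 0.000146) and was also down-regulated against wild-type (log2 difference -1.30 ± 0.16, adjusted p = 0.000525). Its clone 7 mean of 6.59 lay below the lower quartile of all probe sets (7.05). The paper reports that, of the genes it took to qRT-PCR, XIRP2 alone differed from the arrays, in both clones. RGS16, which shortens signals of G-protein-coupled receptors, read 9.72, 9.58 and 9.88 in clone 7, against 10.96, 10.96 and 10.76 in mock (2.25-fold lower, adjusted p = 0.000193). The arrays did not overlap, and RGS16 was also down-regulated against wild-type (log2 difference -1.04 ± 0.11, adjusted p = 0.000218). NES, the intermediate filament nestin of neural progenitors and glioma cells, read 8.90, 8.92 and 8.74 in clone 7, against 9.65, 9.69 and 9.60 in mock (1.73-fold lower, adjusted p = 0.000146), with wild-type cells higher still at 9.98, 10.11 and 10.16. B3GALT1, a galactosyltransferase, fell 2.18-fold (adjusted p = 0.00548) and PLCXD3 1.82-fold (adjusted p = 0.00074), and both were down-regulated against wild-type (log2 difference -1.49 and -0.94). CHRM3, the M3 muscarinic receptor, fell 1.85-fold (adjusted p = 0.0217), but its call was lost in 4 of the 6 fits that left out 1 clone 7 or mock array (adjusted p between 0.0503 and 0.0896). FSTL5, a follistatin-like secreted protein, fell 2.62-fold (adjusted p = 0.0168) and was down-regulated against wild-type (log2 difference -1.45). Its 6.70, 6.44 and 7.56 in clone 7 lay below the 8.34, 8.26 and 8.26 of mock, and it was called without the array labelled clone 7 replicate 3 (log2 difference -1.72, adjusted p = 0.00202) but in none of the 5 other fits that left out 1 clone 7 or mock array (adjusted p between 0.0662 and 0.0827). Also called without it were XIRP2, RGS16, NES, B3GALT1, PLCXD3 and CHRM3, with log2 differences of -1.53, -1.24, -0.74, -0.92, -0.85 and -0.69. The uncharacterized LOC101928697 fell 2.84-fold against mock (adjusted p = 0.00919), a call lost without mock replicate 1 (adjusted p = 0.0502), was called without the array labelled clone 7 replicate 3 (log2 difference -1.19) and was not called against wild-type (log2 difference -0.85, adjusted p = 0.0948).

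**Figure D2:**
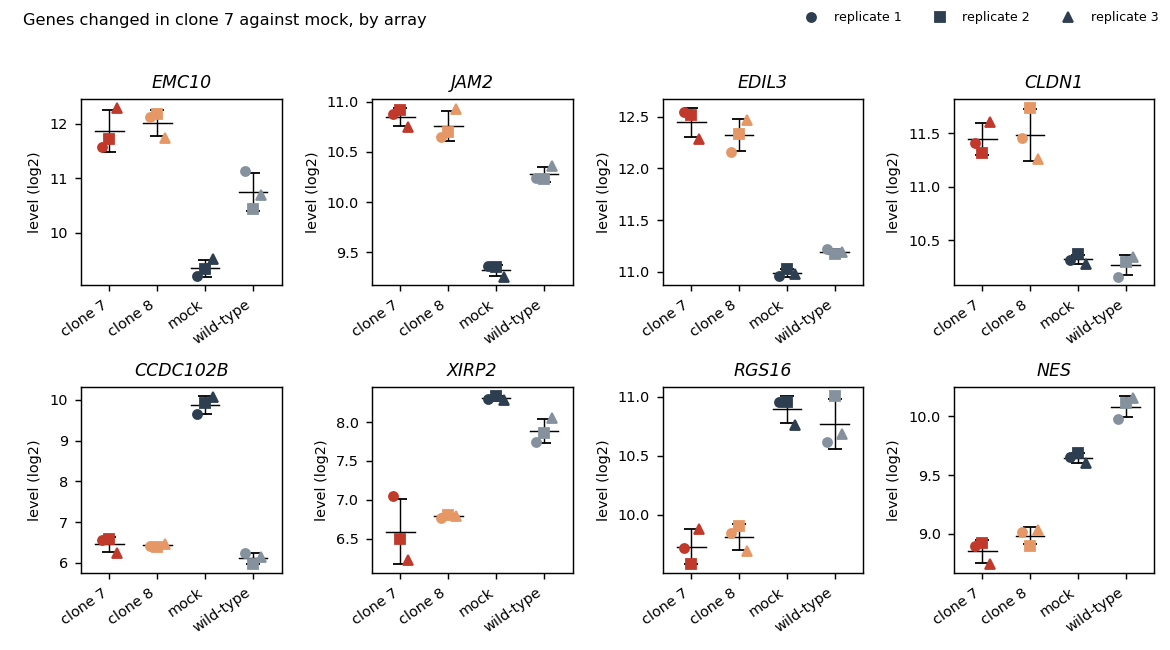
Log2 level (vertical axis) of 8 genes on each array of clone 7, clone 8, mock and wild-type cells (horizontal axis), with replicates 1, 2 and 3 as circles, squares and triangles and the group mean with its SD (n = 3) as bars. At EMC10 the clone 7 arrays lie between 11.57 and 12.30 and the mock arrays between 9.20 and 9.51, and at CCDC102B clone 7 and wild-type cells share a low level below mock.

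Some of the largest differences on clone 7 replicates 1 and 2 were not seen on the array labelled clone 7 replicate 3. The genes of this paragraph were chosen after their values were seen, as those called in clone 7 without both replicate 3 arrays and apart from clone 8. TDO2, which opens the kynurenine pathway of tryptophan breakdown, read 12.23, 11.91 and 8.92 on the clone 7 arrays, against 8.86, 8.91 and 8.59 in mock. Replicates 1 and 2 were far above mock while the third array lay beside it. With all arrays TDO2 was not called (log2 2.23 ± 0.85 SE, adjusted p = 0.218), and without the array labelled clone 7 replicate 3 it rose by 3.28 ± 0.68 (log2, adjusted p = 0.0182). SULF1, a sulfatase that trims heparan sulfate at the cell surface, read 11.27, 11.25 and 8.33 in clone 7, against 8.75, 8.74 and 8.67 in mock. Here the third array was below every mock array, and SULF1 was called without it (log2 2.54 ± 0.65, adjusted p = 0.0429) and not with all arrays (adjusted p = 0.405). NLGN4X, a neuroligin of synapses, and LAMA2, a laminin chain, had the same form, with 10.81, 10.89 and 7.60 in clone 7 against 8.90, 8.89 and 8.77 in mock at NLGN4X, and 10.21, 10.34 and 7.96 in clone 7 against 8.84, 8.72 and 8.81 in mock at LAMA2. Neither was called with all arrays or without the array labelled clone 7 replicate 3, and both rose without both replicate 3 arrays (log2 2.00 and 1.49, adjusted p = 5.34e-07 and 8.98e-07). The log2 differences were the same in the last 2 of these fits. Leaving out the array labelled clone 8 replicate 3 as well lowered the SE from 0.65 to 0.10 at NLGN4X and from 0.47 to 0.08 at LAMA2. At TDO2 it went from 0.68 to 0.15 and at SULF1 from 0.65 to 0.08. NLGN4X read 7.95, 7.61 and 10.74 on the clone 8 arrays. In the other direction, GPM6A, a neuronal membrane glycoprotein, read 7.50, 7.29 and 10.16 in clone 7, against 10.45, 10.43 and 10.38 in mock. It fell by 3.03 on the log2 scale without the array labelled clone 7 replicate 3 (adjusted p = 0.00905) and was not called with it (adjusted p = 0.153). UNC5C, a netrin receptor of axon guidance, read 8.91, 9.12 and 11.36 in clone 7, against 11.14, 11.09 and 11.05 in mock, and TMEM47, a junctional membrane protein, read 8.31, 8.46 and 10.45 in clone 7 against 10.18, 10.11 and 10.14 in mock. Both fell without that array (adjusted p = 0.0353 and 0.0313) and were not called with all arrays (adjusted p = 0.374 and 0.396). Between clone 7 and clone 8, 0 genes (0%) were called in either direction with all arrays, while 1328 of 18417 genes (7.21%) had an unadjusted p under 0.05. Without both replicate 3 arrays 617 genes (3.35%) were called, 444 higher in clone 7 (2.41%) and 173 lower (0.939%).

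**Figure D3:**
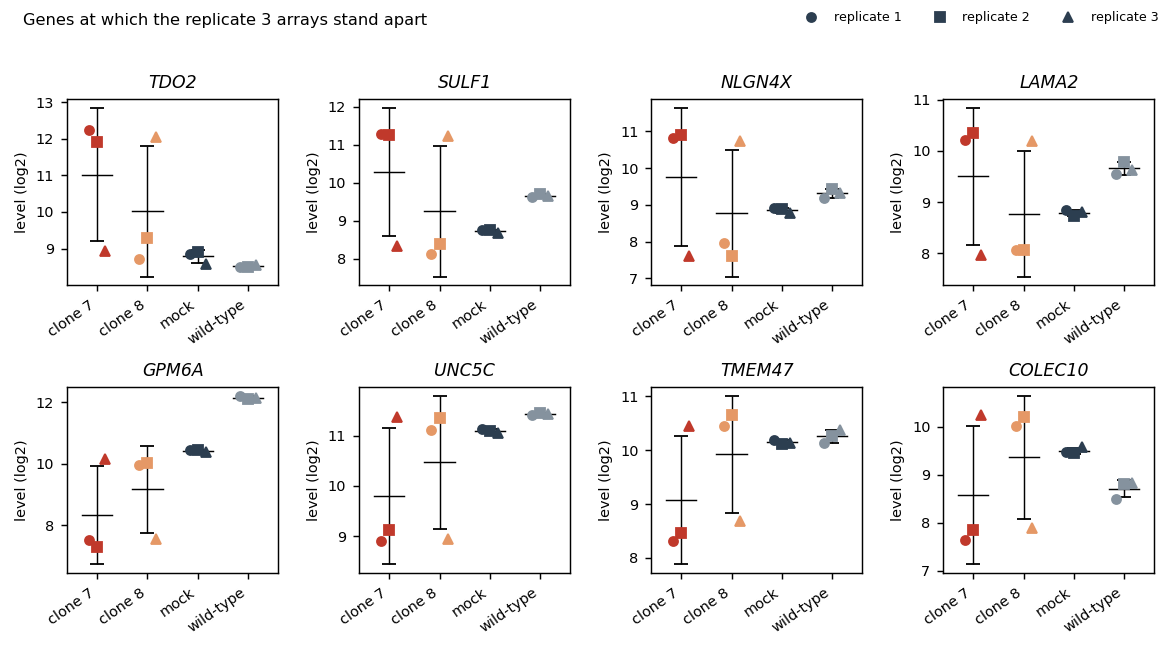
Log2 level (vertical axis) of 8 genes on each array of clone 7, clone 8, mock and wild-type cells (horizontal axis), drawn as in the plot of the changed genes with the group mean and SD (n = 3) as bars. The triangle of clone 7 lies with clone 8 and the triangle of clone 8 lies with clone 7, as at TDO2, where clone 7 read 12.23 and 11.91 on replicates 1 and 2 and 8.92 on the array labelled replicate 3.

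Some genes of cell division were lower in clone 7, nearly all by less than 1.5-fold. Of 35 mitosis and spindle genes measured, 19 were lower and 0 higher at the adjusted p alone, beside 1.32% of all genes lower, and the median log2 difference of the list was -0.39, against -0.01 over all genes. By the full limits 1 fell, the mitotic helicase ERCC6L, with 7.71, 7.74 and 7.81 in clone 7 against 8.41, 8.38 and 8.25 in mock (1.51-fold, log2 difference -0.60 ± 0.09 SE, adjusted p = 0.0055). It lay so near the 1.5-fold limit that the call was lost without clone 7 replicate 1, mock replicate 1 or mock replicate 2 (log2 difference -0.57, -0.56 and -0.58). Without the array labelled clone 7 replicate 3 the list had 24 lower genes, beside 2.4% of all genes, a median of -0.43 and 5 called, ERCC6L, the cyclin CCNA2, the spindle checkpoint kinase BUB1B and the kinetochore genes CENPE and NUF2. BUB1B read 11.12, 11.08 and 11.46 in clone 7, against 11.77, 11.77 and 11.74 in mock (log2 difference -0.54 ± 0.11, adjusted p = 0.0244, and -0.66 without the third array). No array overlapped, and the array labelled clone 7 replicate 3 lay nearest to mock. Between 4 and 6 genes of the list passed the adjusted p without any 1 of clone 7 replicates 1 and 2 and the mock arrays. Calls over all genes also fell in these fits, from 129 by the full limits to between 89 and 100. The same applies to such counts for the lists below. The median of the mitosis list then lay between -0.40 and -0.34. CCNA2 and CENPE lie in the later part of chromosome 4, described below, and without the 3 genes of the list on that chromosome its median was -0.38. MKI67, a proliferation marker, had the only positive difference of the list (log2 0.33 ± 0.09, adjusted p = 0.0633), and its 11.58, 11.71 and 11.83 in clone 7 were above the 11.37, 11.38 and 11.39 of mock and below the wild-type mean of 11.98. Without both replicate 3 arrays 29 genes of the list were lower at the adjusted p alone, beside 6.8% of all genes. In that fit 1 was higher, MKI67, beside 7.5% of all genes.

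A smaller share of the genes that copy and repair DNA passed the adjusted p, all of them lower. Of 33 DNA replication genes 11 were lower and 0 higher at the adjusted p alone, beside 1.32% of all genes lower and 1.82% higher, with a median log2 difference of -0.30. CCNE1, the cyclin E1 of S phase entry, had the highest difference of that list and did not pass (log2 0.32, adjusted p = 0.176). MCM10, which starts replication forks, fell 1.53-fold, with 10.14, 10.19 and 10.17 in clone 7 against 10.77, 10.78 and 10.80 in mock (adjusted p = 0.00368). The helicase subunits MCM6 and MCM3 were lower by less than the fold limit (log2 difference -0.37 ± 0.08 and -0.36 ± 0.08, adjusted p = 0.0217 and 0.0244). Of 16 homologous recombination and Fanconi genes 3 were lower and 0 higher at the adjusted p alone, with a median of -0.31. MCM10 and XRCC2 were the only members of these lists called. XRCC2, which acts in homologous recombination, fell 1.69-fold, with 10.40, 10.42 and 10.46 in clone 7 against 11.15, 11.17 and 11.24 in mock (adjusted p = 0.00095), and was also down-regulated against wild-type (log2 difference -0.60 ± 0.09, adjusted p = 0.0021). Without the array labelled clone 7 replicate 3 the lower replication genes numbered 19 and the lower repair genes 7, beside 2.4% of all genes, with medians of -0.32 and -0.35, and 1 replication gene and 3 repair genes were called. The exonuclease EXO1 was among the repair genes added (log2 difference -0.66, adjusted p = 0.0231). Without any 1 of the other clone 7 or mock arrays 1 to 3 of the replication genes and 1 or 2 of the repair genes passed the adjusted p, while the medians stayed between -0.32 and -0.27 for replication and between -0.32 and -0.24 for repair. Of 18 cyclins, kinases and inhibitors of the G1 checkpoint, 1 was lower, CCND3, and the list's median was -0.10.

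Promoters of these lists were read because their members moved together. Cell cycle genes are known to carry the cell cycle homology region (CHR), bound by the DREAM and MuvB complexes in late cell cycle genes, and E2F sites in genes of S phase. The CHR was searched as TTTGAA and E2F sites as TTTCCCGC, TTTCGCGC, TTTGCCGC or TTTGGCGC, on both strands, in the 250 bases before the start site of 14239 tested genes with an entry in the RefSeq promoter set (GRCh38.p14). Such entries existed for 30 genes of the mitosis list and 30 of the replication list. The CHR was found in 1506 of the 14239 (10.6%), in 16 of 30 mitosis and spindle genes (53.3%) and in 8 of the 16 of them that were lower (50%). E2F motifs were found in 534 of all (3.75%), in 12 of 30 DNA replication genes (40.0%) and in 4 of the 11 of them that were lower (36.4%). The lower genes of each list held the motif at about the share of the list as a whole. Below are the promoters with a match of the 3 lower mitosis genes and 2 lower replication genes with the largest falls, 5′ to 3′ toward the start site, with the matched letters in capitals. ERCC6L (chrX:72239028-72239277, minus strand), BUB1B (chr15:40160819-40161068, plus strand) and KIF15 (chr3:44761544-44761793, plus strand), a spindle kinesin, hold the CHR 206, 17 and 29 bases before the start site. MCM6 (chr2:135876444-135876693, minus strand) holds 4 E2F matches, which overlap in pairs on opposite strands, and MCM3 (chr6:52284743-52284992, minus strand) holds 1.
ERCC6L: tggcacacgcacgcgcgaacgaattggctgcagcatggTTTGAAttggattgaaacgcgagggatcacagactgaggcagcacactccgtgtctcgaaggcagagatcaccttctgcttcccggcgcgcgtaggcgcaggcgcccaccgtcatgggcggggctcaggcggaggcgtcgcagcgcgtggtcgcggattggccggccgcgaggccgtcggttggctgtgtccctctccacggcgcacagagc
BUB1B: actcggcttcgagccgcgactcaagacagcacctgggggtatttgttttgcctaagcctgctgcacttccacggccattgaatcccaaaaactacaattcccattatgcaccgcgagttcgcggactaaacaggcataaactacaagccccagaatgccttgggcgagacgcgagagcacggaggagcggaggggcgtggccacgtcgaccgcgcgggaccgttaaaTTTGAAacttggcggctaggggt
KIF15: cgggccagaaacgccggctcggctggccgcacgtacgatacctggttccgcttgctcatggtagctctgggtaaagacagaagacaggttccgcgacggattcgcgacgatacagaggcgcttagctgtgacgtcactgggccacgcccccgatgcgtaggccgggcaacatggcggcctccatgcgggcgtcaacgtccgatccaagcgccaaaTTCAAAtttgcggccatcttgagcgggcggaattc
MCM6: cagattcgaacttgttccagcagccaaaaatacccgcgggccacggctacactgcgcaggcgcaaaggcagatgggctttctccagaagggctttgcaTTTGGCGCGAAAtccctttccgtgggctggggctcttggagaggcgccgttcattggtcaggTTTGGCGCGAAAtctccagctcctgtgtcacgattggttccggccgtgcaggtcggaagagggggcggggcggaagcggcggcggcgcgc
MCM3: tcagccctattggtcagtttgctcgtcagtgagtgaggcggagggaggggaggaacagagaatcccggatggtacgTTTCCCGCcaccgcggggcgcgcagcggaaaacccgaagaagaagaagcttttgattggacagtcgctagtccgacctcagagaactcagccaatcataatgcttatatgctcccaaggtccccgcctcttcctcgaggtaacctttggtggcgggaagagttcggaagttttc

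Some targets of p53 were higher in clone 7, and with all arrays no other list had as high a median. Of 24 measured, 6 were higher and 0 lower at the adjusted p alone, beside 1.82% of all genes higher, the median log2 difference was 0.26 and 22 had a positive difference. By the full limits 3 rose, beside 0.467% of all genes. In the fit without the array labelled clone 7 replicate 3 6 were again higher at the adjusted p alone, beside 2.9% of all genes, the median was 0.22, 17 had a positive difference and 7 a negative one, and 1 was called, TP53I3. The median of the invasion protease list was then higher, at 0.23. Without both replicate 3 arrays 12 p53 targets were higher and 1 lower at the adjusted p alone, beside 7.5% and 6.8% of all genes. TP53I3, a quinone oxidoreductase induced by p53, rose 1.55-fold, with 10.71, 10.66 and 10.50 in clone 7 against 10.03, 9.97 and 9.97 in mock (adjusted p = 0.00095). TP53INP1, a nuclear partner of p53, and ZMAT3, an RNA-binding target of p53, rose 1.51-fold and 1.5-fold (adjusted p = 0.00226 and 0.00225). TP53INP1 and ZMAT3 fell short of 1.5-fold without the array labelled clone 7 replicate 3 (log2 0.54 and 0.51) and without mock replicate 2 for TP53INP1 or mock replicate 3 for ZMAT3 (log2 0.58 and 0.55). GDF15, a secreted stress cytokine, was 1.36-fold higher than mock (log2 0.45 ± 0.06, adjusted p = 0.00239) and 1.37 above wild-type on the log2 scale (adjusted p = 2.62e-07). CDKN1A, which encodes the cell cycle inhibitor p21, read 11.55, 11.56 and 11.79 in clone 7, against 11.34, 11.32 and 11.28 in mock, and did not pass (log2 0.32 ± 0.09, adjusted p = 0.0748). With 1 clone 7 or mock array left out in turn, between 4 and 6 genes of the list passed the adjusted p.

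A minority of the genes of lipid synthesis were lower in clone 7. Of 19 cholesterol synthesis and uptake genes 5 were lower and 0 higher at the adjusted p alone, beside 1.32% of all genes lower, with a median log2 difference of -0.27, and 0 were called by the full limits. With the array labelled clone 7 replicate 3 left out 7 were lower, beside 2.4% of all genes, the median was -0.25 and 1 fell, the methylsterol monooxygenase MSMO1 on chromosome 4 (log2 difference -0.62, adjusted p = 0.0218). LSS, the lanosterol synthase, had the highest difference of the list and was not called (log2 0.36, adjusted p = 0.441). ACAT2, the cytosolic thiolase of the pathway, read 9.63, 9.65 and 9.54 in clone 7, against 10.20, 10.20 and 10.12 in mock (log2 difference -0.57 ± 0.10, adjusted p = 0.01), and INSIG1, the sterol sensor partner of the endoplasmic reticulum, was 1.34-fold lower (adjusted p = 0.00554). Of 15 genes of fatty acid synthesis and desaturation 3 were lower and 0 higher at the adjusted p alone, with a median of -0.14, and 5 were lower without the array labelled clone 7 replicate 3, with a median of -0.09. The elongase ELOVL6, called in both fits, fell 1.64-fold, with 10.30, 10.32 and 10.48 in clone 7 against 11.05, 11.14 and 11.05 in mock (adjusted p = 0.00587). Without any 1 of clone 7 replicates 1 and 2 and the mock arrays, 1 to 3 of the cholesterol genes and 1 of the fatty acid genes passed the adjusted p. ELOVL6 lies in the later part of chromosome 4, and without the 3 genes of this list on that chromosome the median with all arrays was -0.09.

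Of 31 genes of butanoate, propanoate and branched-chain breakdown 3 rose and 0 fell, AADAC, ECHS1 and ACADSB, beside 0.467% and 0.233% of all genes, and the median was 0.03. With the array labelled clone 7 replicate 3 left out 4 rose and 1 fell, beside 0.956% and 0.548% of all genes, with a median of 0.09. The additions were the dehydrogenase ALDH6A1 of valine breakdown on chromosome 14 (log2 0.69, adjusted p = 0.0495) and the mitochondrial HADH on chromosome 4 (log2 difference -0.64, adjusted p = 0.00706). ECHS1, the mitochondrial enoyl-CoA hydratase, read 10.89, 10.91 and 10.84 in clone 7, against 10.33, 10.21 and 10.17 in mock (1.57-fold, adjusted p = 0.000361). ACADSB, an acyl-CoA dehydrogenase of isoleucine breakdown, rose 1.64-fold (log2 0.72 ± 0.11, adjusted p = 0.00444). Both lie on chromosome 10, and neither was called between clone 7 and wild-type (log2 0.15 and 0.07). Metallothioneins, which bind zinc and copper, had 4 of 10 genes higher at the adjusted p alone, beside 1.82% of all genes, 5 of 10 without the array labelled clone 7 replicate 3, 2 of 10 without clone 7 replicate 2, mock replicate 1 or mock replicate 2, and a median of 0.24 with all arrays. MT1F and MT1G were 1.30-fold and 1.24-fold higher (adjusted p = 0.00525 and 0.00813), and their near-identical relatives share probes.

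A few genes of adhesion, matrix and invasion rose, 2 or 3 in each list, beside 0.467% of all genes. Of 22 junction and adhesion genes 3 rose, namely CDH10 (a cadherin), CLDN1 and JAM2, and the list's median was 0.06. CDH10 rose 1.78-fold (log2 0.84 ± 0.17, adjusted p = 0.0212), a call lost without any one of the mock arrays (adjusted p between 0.0809 and 0.0851). Of 33 matrix genes, with a median of 0.08, 2 rose, EDIL3 and the proteoglycan versican (VCAN, 1.57-fold, adjusted p = 0.0361), and VCAN was not called without the array labelled clone 7 replicate 3 (log2 0.49, adjusted p = 0.0599), nor without any other single clone 7 or mock array (adjusted p between 0.0627 and 0.139). Of 22 invasion proteases and inhibitors 2 rose, with a median of 0.16, and without the array labelled clone 7 replicate 3 3 rose, with a median of 0.23 and beside 0.956% of all genes. Without both replicate 3 arrays 5 of them rose, beside 1.43% of all genes. The interstitial collagenase MMP1 read 9.42, 9.48 and 9.0 in clone 7, against 8.50, 8.52 and 8.20 in mock, and rose 1.86-fold (adjusted p = 0.00671). Its wild-type level of 9.65, 9.77 and 9.83 was above both. MMP16, a membrane-anchored metalloproteinase, rose 1.56-fold (adjusted p = 0.00198). Clone 7 was not called against wild-type at MMP16 (log2 difference -0.01), and mock was called below wild-type (log2 difference -0.65). The aggrecanase ADAMTS5 and, in the matrix list, the collagen COL12A1 were called without the array labelled clone 7 replicate 3 (log2 1.12 and 0.79, adjusted p = 0.0109 and 0.0137), and not with all arrays (log2 0.83 and 0.63, adjusted p = 0.0986 and 0.0636).

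Actin genes went both ways. Of 19 contractile and actin filament genes 2 rose and 3 fell, beside 0.467% and 0.233% of all genes, and 1 rose and 2 fell without the array labelled clone 7 replicate 3. The smooth muscle genes TAGLN and ACTA2 rose 1.95-fold and 1.61-fold (adjusted p = 0.00983 and 0.0367). TAGLN read 10.47, 10.57 and 10.02 in clone 7 against 9.42, 9.32 and 9.44 in mock, and ACTA2 read 11.02, 10.97 and 11.52 in clone 7 against 10.54, 10.48 and 10.43 in mock. Clone 7 was not called against wild-type at TAGLN (log2 0.21), where mock was called below wild-type (log2 difference -0.75). At ACTA2 clone 7 was called above wild-type (log2 1.29). The array labelled clone 7 replicate 3 was the lowest of its group at TAGLN and the highest at ACTA2. Without it ACTA2 was not called (log2 0.51, adjusted p = 0.0579), nor without any other single clone 7 or mock array (adjusted p between 0.0599 and 0.138), and TAGLN was lost without clone 7 replicate 1 or 2 or mock replicate 2 (adjusted p between 0.0538 and 0.0589). Besides XIRP2, dystrophin (DMD, 1.5-fold lower, adjusted p = 0.000311) and the actin capping protein tropomodulin 1 (TMOD1, 1.53-fold lower, adjusted p = 0.00587) fell. TMOD1 was short of the fold limit without the array labelled clone 7 replicate 3 (log2 difference -0.54) or without mock replicate 1 (-0.58).

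In the lists of receptors and ligands of vessels, axons and inflammation between 0 and 3 genes were called in a direction, beside 0.467% of all genes that rose and 0.233% that fell. Of 26 genes that promote angiogenesis 1 rose, the Notch ligand JAG1 (1.56-fold, adjusted p = 0.0169), and 1 fell, the angiopoietin receptor TEK, with 9.52, 9.48 and 8.89 in clone 7 against 10.11, 10.12 and 10.02 in mock (1.72-fold lower, adjusted p = 0.0222). TEK was not called without the array labelled clone 7 replicate 3 (log2 difference -0.58, adjusted p = 0.0243), on which it read lowest, nor without any one mock array (adjusted p between 0.0699 and 0.099), and JAG1 was not called without clone 7 replicate 1 or 2 or mock replicate 2 or 3 (adjusted p between 0.0726 and 0.093). TEK was also the only receptor tyrosine kinase or ligand called, of 24, and JAG1 the only gene called of 26 of the Notch and Wnt pathways. None of 20 genes that restrain angiogenesis was called, where thrombospondin 2 (THBS2) came closest (1.42-fold higher, adjusted p = 0.00465). Among 25 axon guidance genes the Slit receptor ROBO1 and the netrin receptor NEO1 rose 1.99-fold and 1.96-fold (adjusted p = 0.0154 and 0.0451). Each read highest on the array labelled clone 7 replicate 3, at 10.72 beside 10.10 and 10.11 for ROBO1 and 10.62 beside 9.78 and 9.79 for NEO1, and NEO1 was not called without it (adjusted p = 0.0644). ROBO1 was called without it (adjusted p = 0.0217) but not without any one mock array (adjusted p between 0.0639 and 0.0674), and NEO1 was lost without any one of the 6 arrays and without clone 8 replicate 1 (adjusted p between 0.0509 and 0.172). Of 28 inflammatory and complement genes 3 rose and CD180 fell. IL18, a cytokine of the interleukin 1 family, read 10.30, 10.25 and 10.54 in clone 7 against 9.39, 9.55 and 9.44 in mock (1.88-fold, adjusted p = 0.00161), IL2RG, the common gamma chain, rose 1.78-fold (adjusted p = 0.00226) and the acute phase gene SAA2 1.59-fold (adjusted p = 0.000146). Of 21 RGS genes and G-protein-coupled receptors 3 fell and 0 rose, RGS16, CHRM3 and BDKRB1, with a median of -0.10. Among 22 genes of ERK output the transcription factor ETV1 fell, with 9.37, 9.35 and 9.33 in clone 7 against 10.09, 9.95 and 9.93 in mock (1.56-fold lower, adjusted p = 0.00198). Its relative ETV4 was called without the array labelled clone 7 replicate 3 (log2 difference -0.72, adjusted p = 0.0415) and not with all arrays (adjusted p = 0.397), and UNC5C was likewise the added axon guidance gene. Of the members of the gene lists named as called with all arrays, TP53INP1, ZMAT3, VCAN, ACTA2, TMOD1, TEK and NEO1 were not called without the array labelled clone 7 replicate 3, and the others were.

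Besides EMC10, no gene of its complex and no gene of endoplasmic reticulum stress was called. The other 9 EMC genes differed from mock by between -0.21 and 0.13 on the log2 scale, with a smallest adjusted p of 0.449. Of 26 genes of endoplasmic reticulum stress and degradation 0 were called and 2 were higher at the adjusted p alone, HERPUD1 (1.19-fold, adjusted p = 0.0273) and SESN2 (1.24-fold, adjusted p = 0.036), with a median of 0.05. Neither passed without any 1 of clone 7 replicates 1 and 2 and the mock arrays. Without the array labelled clone 7 replicate 3, 3 genes of this list were higher, beside 2.9% of all genes. Without both replicate 3 arrays 6 were higher, beside 7.5% of all genes. In both of these fits 0 of them were called, and EMC10 was again the only gene called of its complex. The chaperone HSPA5 read 13.80, 13.75 and 13.90 in clone 7 against 13.75, 13.77 and 13.75 in mock (log2 0.06 ± 0.07, adjusted p = 0.798). Lists of interferon-stimulated genes, the TGF-beta pathway and glycolysis and hypoxia had 0 genes called and medians of -0.07, 0.06 and 0.00. At the adjusted p alone OAS3 and BST2 were lower among 24 interferon-stimulated genes. TGFBI was higher and TGFBR2 lower among 24 TGF-beta genes, and BNIP3 higher among 25 of glycolysis and hypoxia. Over all genes 1.82% were higher and 1.32% lower. These lists also had 0 genes called without the array labelled clone 7 replicate 3 or without both replicate 3 arrays. Of 11 astroglial markers NES alone was called. VIM read 13.71, 13.71 and 13.37 in clone 7 against 13.60, 13.62 and 13.59 in mock, and GFAP read 8.79, 8.63 and 8.81 in clone 7 against 8.61, 8.68 and 8.65 in mock, and on these arrays the levels of different genes cannot be ordered. No marker of neuronal, epithelial, endothelial, leukocyte, fibroblast or oligodendrocyte cells was called, of 9, 8, 8, 7, 8 and 6 measured, and the medians of these lists lay between -0.07 and 0.10. The same held without the array labelled clone 7 replicate 3. Without both replicate 3 arrays 1 neuronal and 1 leukocyte marker rose. Of the fibroblast markers 1 then rose and 1 fell, beside 1.43% and 0.738% of all genes.

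**Figure D4:**
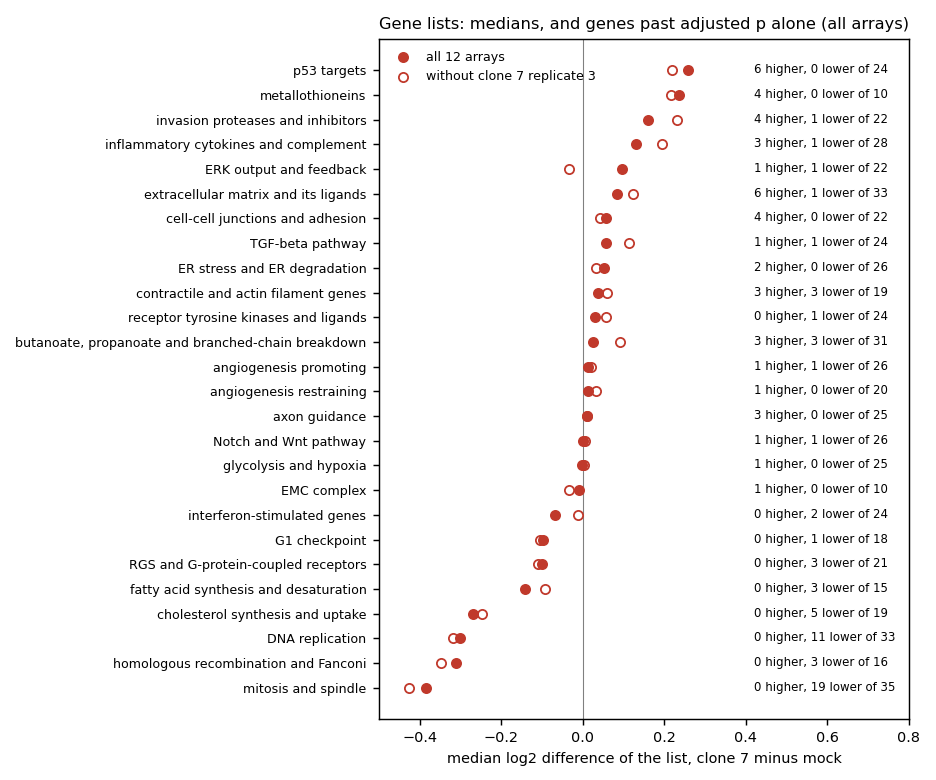
Median log2 difference between clone 7 and mock (horizontal axis) of each of 26 gene lists (vertical axis), with all arrays as filled points and without the array labelled clone 7 replicate 3 as open points, and beside it the genes higher and lower at the adjusted p alone with all arrays. With all arrays mitosis genes lie lowest at -0.39 and p53 targets highest at 0.26, without that array invasion proteases lie highest at 0.23, and the list of ERK output changes sign.

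Changed genes also lay together on some chromosomes. To describe this, the measured genes of each chromosome were put in order and split into 8 runs of equal size, 184 runs in all, a split chosen after the values were seen. With all arrays the median log2 differences of the runs had quartiles of -0.02 and 0.01 and lay between -0.15 and 0.19. The later part of chromosome 4 (355 genes in runs 5 to 8) was lower on clone 7 replicates 1 and 2 and not on the array labelled replicate 3. In run 7 the median difference from the mock mean was -0.22 and -0.21 on clone 7 replicates 1 and 2 and 0.03 on the array labelled replicate 3, against values between -0.01 and 0.01 on the mock arrays. The clone 8 arrays read -0.08 and 0.05 on replicates 1 and 2 and -0.30 on the array labelled clone 8 replicate 3 there, and -0.15, -0.06 and -0.22 in run 6. With all arrays 3 genes of runs 5 to 8 fell and 0 rose, beside 0.233% and 0.467% of all genes. Without the array labelled clone 7 replicate 3 there were 28 falls and 4 rises in these runs, beside 0.548% and 0.956% of all genes. Runs 1 to 4, with 354 genes, then had 1 fall and 4 rises. Without both replicate 3 arrays runs 5 to 8 had 38 falls and 4 rises, beside 0.738% and 1.43% of all genes. The middle of chromosome 14 (294 genes in runs 3 to 6) was higher on clone 7 replicates 1 and 2. In run 5 the median was 0.24 and 0.31 on clone 7 replicates 1 and 2 and 0.03 on the array labelled replicate 3, against values between -0.01 and 0.02 on the mock arrays. Of the clone 8 arrays the one labelled replicate 3 was again like these clone 7 arrays, at 0.24 beside -0.05 and 0.00. The rises in runs 3 to 6 numbered 1 with all arrays, beside 0.467% of all genes. They numbered 14 without the array labelled clone 7 replicate 3, beside 0.956% of all genes, and 20 without both replicate 3 arrays, beside 1.43%. The last run of chromosome 10 differed in form, since all 3 clone 7 arrays were higher (0.15, 0.13 and 0.13), and so were the clone 8 arrays (0.29, 0.08 and 0.24) and the wild-type arrays (0.15, 0.08 and 0.07). Of its 85 genes 18 rose, with ECHS1 and ACADSB among them, beside 0.467% of all genes and 22 on the whole of chromosome 10. In the fit without the array labelled clone 7 replicate 3, 17 rose, beside 0.956% of all genes. Copy number was not measured in these cells.

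**Figure D5:**
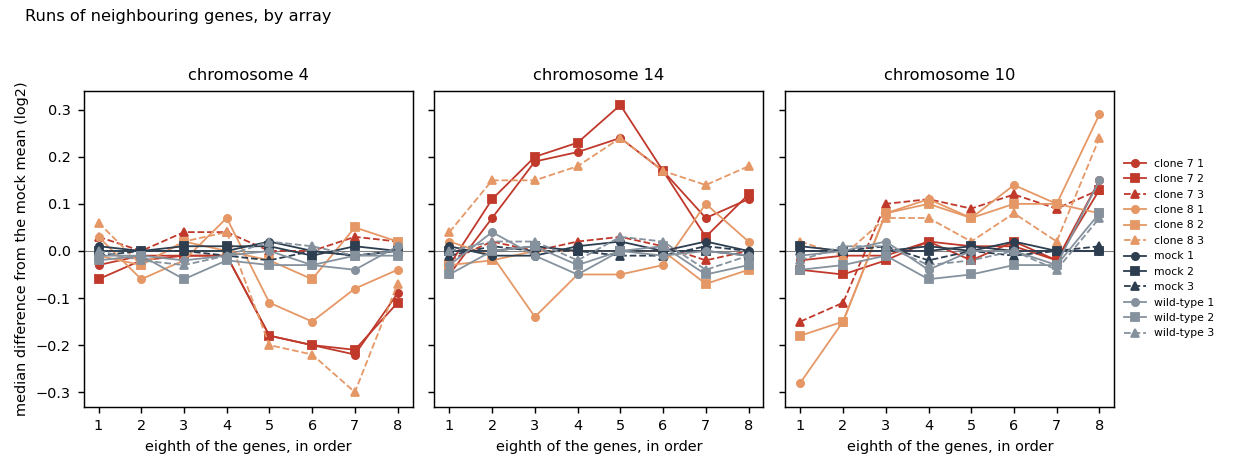
Median log2 difference from the mock mean (vertical axis) of the genes in each of the 8 runs of chromosomes 4, 14 and 10 in gene order (horizontal axis), with a line per array of clone 7, clone 8, mock and wild-type cells and replicate 3 dashed. Clone 7 replicates 1 and 2 fall to about -0.22 on chromosome 4 and rise to 0.31 on chromosome 14, while the array labelled clone 7 replicate 3 stays within 0.04 of mock on both. The array labelled clone 8 replicate 3 reads -0.30 in run 7 of chromosome 4 and 0.24 in run 5 of chromosome 14.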

How the data were processed

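Total RNA of A172 cultures was hybridised by the authors to Affymetrix GeneChip Human Gene 1.0 ST arrays, 3 each of clone 7, clone 8, mock and wild-type. The deposited values are log2 levels of 33297 probe sets, for which the submitters' processing notes name Partek (version not given), while the study's methods name dChip or Partek, and how they were summarised and normalized is not given in the sources read. Differences of low probe sets can be compressed on such a scale, and levels of different probe sets cannot be compared. Groups came from the array titles, 0 value columns lacked a sample and no array was left out of the fit.

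Of the probe sets, 19460 carried a single symbol in the platform annotation, 1754 several and 12083 none. A gene with several probe sets (769 of 18417) was represented by its brightest on average over all arrays. A model with the 4 groups and no block was fitted to all 12 arrays with lmFit and eBayes of limma 3.58.1 (R 4.3.3), and p-values were adjusted by Benjamini-Hochberg over all genes of a contrast. Genes were called at an adjusted p under 0.05 and at least 1.5-fold. The procedure was tested on simulated data. Promoter sequences and gene order came from RefSeq (GRCh38.p14). With 3 arrays a group, the number of arrays limits the precision.

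Named were EMC10, the 15 largest rises and 15 largest falls among called genes, in each gene list at most 4 called members or, with none called, the 1 or 2 with the smallest adjusted p, the 8 genes called against mock with the largest called difference between the clones (none with all arrays), and the genes taken to qRT-PCR in A172. Genes said to be chosen after their values were seen, list members named with the counts or promoters, and markers are exceptions. The comparison, the gene lists and this rule were chosen with earlier results of these data known. Alternatives were the arrays entering the fit, each clone 7, mock and clone 8 array left out in turn, the replicate number as a block, quantile normalization, a filter on dim genes, the mean of a gene's probe sets, a variance trend and a 2-fold limit.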

Additional observations from a re-analysis of the deposited data

Results flagged for a closer look

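Between clone 7 and clone 8, whose difference was tested directly by limma, 617 genes were called without both replicate 3 arrays and 0 with all arrays. That omission was chosen after seeing that each of these arrays lay nearer to the other clone, and which label is right was not tested. Among the genes higher in clone 7 than in clone 8 in that fit, the log2 difference was 3.07 at TDO2, 3.0 at SULF1, 2.23 at ZNF100 and 0.80 at AMTN. Among those lower it was -2.59 at GPM6A, -2.22 at UNC5C, -2.37 at COLEC10, a collectin of liver, and -2.16 at TMEM47. ZNF100 read 8.75, 8.82 and 6.59 in clone 7 against 6.45, 6.72 and 6.33 in mock, and COLEC10 read 7.65, 7.84 and 10.25 in clone 7 against 9.48, 9.45 and 9.58 in mock, so that in both the array labelled clone 7 replicate 3 stood apart from replicates 1 and 2. Groups of 3 arrays are too small for a test of a single outlying array.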

How the results depend on the processing

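EMC10 kept its direction and its call under every alternative (log2 difference 2.30 to 2.67, adjusted p 1.3e-06 to 0.00171). With 1 array left out at a time, the count of 129 changed genes lay between 89 and 277, that of 86 genes that rose between 58 and 176, and that of 43 that fell between 24 and 101. The highest value of each came without the array labelled clone 7 replicate 3, the lowest total and the lowest count of rises without mock replicate 2, and the lowest count of falls without mock replicate 1 (69 rose and 24 fell). Without both replicate 3 arrays 399 genes changed (263 rose, 136 fell), with only the clone 7 and mock arrays and without clone 7 replicate 3 402 (265 rose, 137 fell), and with a 2-fold limit 29 (18 rose, 11 fell). The other alternatives gave between 113 and 167 genes. The replicate number as a block gave 113 (73 rose, 40 fell). Of the 84 named-gene results besides EMC10, which include genes not called with all arrays, 9 then lost their call. Deviations from the group mean of same-numbered clone 7 and mock arrays had correlations of -0.01, 0.00 and 0.04. The clone 7 deviations are set largely by the array that goes against its label. These values therefore cannot decide whether same-numbered arrays were handled together. The count between clone 7 and clone 8 was 0 under every alternative but the omission of both replicate 3 arrays (617). No called result reversed its direction. The cause of these differences was not tested. Genes below the lower quartile of probe set means (7.05), ANO5, SULT1B1 and CCDC102B in clone 7 among them, lie where arrays measure poorly, and their fold changes may be understated.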
